A study of Mus musculus with 26 samples.

Results

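The Dlx and Tlx homeobox genes were followed across all regions deposited for mouse embryonic stem cells (ESCs) profiled by sequential ChIP. The members were Dlx1, Dlx2, Dlx3, Dlx4, Dlx5, Dlx6, Tlx1, Tlx2 and Tlx3, which are 9 of 49595 genes with a RefSeq start site in mm10. For each gene and each of 12 region tables, the listed region that overlapped 1.5 kb either side of the start site was kept, and where several did, the one with most overlap. This gave 86 regions of 338442 in all.

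MNase-treated chromatin of fixed cells was split over a first ChIP for H3K4me3, H3K27me3 or IgG. Of the chromatin from the first ChIP, 10% was set aside as the in-line total H3K4me3 or total H3K27me3 library, and the rest went into a second ChIP. K4-K27 stands for H3K4me3 followed by H3K27me3, and K27-K4 for the opposite order. E14 is an established line of mouse ESCs, and all cells grew in serum with LIF. The first set was non-clonal E14 cells with WT genotype, in replicates 1 and 2, with 1 IgG–IgG reChIP. The second was derived from the same line and held WT clones 57 and 58 and DPPA2/4 DKO clones 43 and 53, in which the genes for the priming factors DPPA2 and DPPA4 are both knocked out, with 1 IgG–IgG reChIP from WT clone 57. A genotype is thus represented by 2 clones, and p-values for it measure the spread between clones. The replicates of E14 were sequenced in batches A and B and the clones in batch C, so batch and set cannot be told apart. Neither RNA nor protein was measured in these libraries.

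Dlx genes encode homeodomain transcription factors related to fly Distal-less, and in mammals they lie in convergently transcribed pairs, each pair on its own chromosome. Dlx1 and Dlx2 act in GABAergic neurons of the ventral forebrain, Dlx3 and Dlx4 in placenta and ectoderm, with Dlx3 also in skin, hair and teeth, and Dlx5 and Dlx6 in the jaw, limb and bone. Tlx genes are unpaired homeobox genes: Tlx1 is needed for the spleen, Tlx2 acts in the enteric nervous system, and Tlx3 selects excitatory over inhibitory fate in dorsal spinal neurons. In ESCs the CpG-rich promoters of such developmental genes are known for carrying H3K4me3 and H3K27me3 together, a state called bivalent.

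The sequences just upstream of 4 members are shown because they are the DNA under the shared Dlx1/Dlx2 domain and under the Tlx regions described below. They are the 250 bases before the start site in RefSeq (GRCm38.p6, the same assembly as mm10), on the strand of the gene, and CpG dinucleotides are in capitals. Entries were matched for Dlx1 at chr2:71529195-71529444 (plus strand), Dlx2 at chr2:71546755-71547004 (minus strand), Tlx1 at chr19:45150465-45150714 (plus strand) and Tlx3 at chr11:33203589-33203838 (minus strand). Dlx3, Dlx4, Dlx5, Dlx6 and Tlx2 are named only.
Dlx1: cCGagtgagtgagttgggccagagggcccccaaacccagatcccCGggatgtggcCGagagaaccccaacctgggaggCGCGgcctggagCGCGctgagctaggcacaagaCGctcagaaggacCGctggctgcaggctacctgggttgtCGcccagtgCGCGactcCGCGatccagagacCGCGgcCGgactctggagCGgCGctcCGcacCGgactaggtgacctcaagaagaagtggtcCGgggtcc
Dlx2: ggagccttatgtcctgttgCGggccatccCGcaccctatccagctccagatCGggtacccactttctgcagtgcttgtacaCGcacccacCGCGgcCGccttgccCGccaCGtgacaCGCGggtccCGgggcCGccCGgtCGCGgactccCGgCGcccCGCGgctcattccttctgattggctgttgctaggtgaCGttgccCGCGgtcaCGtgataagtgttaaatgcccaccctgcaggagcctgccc
Tlx1: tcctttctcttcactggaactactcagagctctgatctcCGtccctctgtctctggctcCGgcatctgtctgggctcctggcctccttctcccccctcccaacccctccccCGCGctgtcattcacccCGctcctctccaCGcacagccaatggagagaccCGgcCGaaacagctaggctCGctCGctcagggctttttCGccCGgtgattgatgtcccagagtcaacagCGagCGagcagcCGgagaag
Tlx3: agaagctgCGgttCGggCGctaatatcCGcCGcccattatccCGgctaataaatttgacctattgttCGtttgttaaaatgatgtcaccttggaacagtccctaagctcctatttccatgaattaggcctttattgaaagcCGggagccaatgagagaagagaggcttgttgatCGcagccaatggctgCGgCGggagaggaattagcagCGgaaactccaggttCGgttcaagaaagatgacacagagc

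CpG was counted 22 times in the Dlx1 stretch, 24 in Dlx2, 15 in Tlx1 and 13 in Tlx3, against a median of 6 over the 32851 stretches of this length in the table. At least as many as in Dlx1 were held by 14.8% of all stretches, and at least as many as in Tlx3 by 31.5%. The GC content was 68.0%, 66.4% and 62.0% for Dlx1, Dlx2 and Tlx1, but 48.8% for Tlx3, below the median of 52.4%. Neither TAATTA, the core that homeodomain proteins bind, nor TATAAA was found in any of the 4 stretches on either strand, and 4.84% and 12.4% of all stretches hold them. CCGCCC was found on either strand 1 time each in Dlx2 and Tlx3, and 32.7% of all stretches hold it. Over 3 kb centred on the start site, all 9 members could be counted: CpG numbered from 114 at Dlx5 and 117 at Dlx4 to 222 at Tlx3 and 243 at Tlx2, against a median of 92 over 18620 genes listed in the E14 K4-K27 table. The CpG count of Tlx2 was above that of 98.9% of those genes and that of Dlx5 above 66.1%.

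All 9 members had a listed region in both E14 reChIP tables, both WT reChIP tables and the DKO K27-K4 table. For comparison, 37.6% of all genes had one in E14 K4-K27 and 22.6% in WT K27-K4. Total H3K27me3 listed 9 members in WT, 7 in DKO and 6 in E14, against 11.1%, 13.0% and 8.64% of all genes. Total H3K4me3 listed 6, 6 and 5 members, against 38.0%, 35.5% and 32.8% of all genes. In DKO K4-K27, 7 members were listed, without Dlx5 and Tlx1, against 35.7% of all genes. Dlx5 was also the one member with no total H3K4me3 region in any of the 3 sets. A region that is not listed was not called by the authors in that set, and its libraries still have values at the regions of the other sets.

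The regions were wide. In the E14 reChIP tables they measured 14700 bp at Dlx3 to 25350 bp at Dlx1/Dlx2, where the median promoter region was 3900 bp for K4-K27, and the width of each member was above that of 96.2% to 99.3% of promoter regions. In WT K4-K27 the widths ran from 3150 bp at Dlx3 to 11850 bp at Dlx2, against a median of 1950 bp, and Dlx3 was wider than 83.6% of promoter regions.

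The paired loci were arranged differently from each other. Start sites lie 17.3 kb apart for Dlx1/Dlx2, 25.7 kb for Dlx3/Dlx4 and 18.7 kb for Dlx5/Dlx6. Dlx1 and Dlx2 shared 1 region, chr2:71522401-71547750, in both E14 reChIPs, 1 region in WT K27-K4 (chr2:71524501-71547600) and 1 H3K27me3 region in WT and DKO (chr2:71524651-71547600). These domains reach from upstream of Dlx1 across both genes to just past the start of Dlx2, and Dlx1as, the antisense transcript between them, falls in the same regions. In WT K4-K27 the locus was listed as 2 regions, chr2:71527951-71533650 at Dlx1 and chr2:71535751-71547600 at Dlx2. Total H3K4me3 regions in WT lay at the starts, at chr2:71528251-71531550 for Dlx1 and chr2:71543701-71547450 for Dlx2. Dlx3 and Dlx4 were in separate regions in every table that listed both, and so were Dlx5 and Dlx6, whose H3K27me3 domains in WT (chr6:6867901-6885300 and chr6:6850201-6867600) nearly met.

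**Figure D1:**
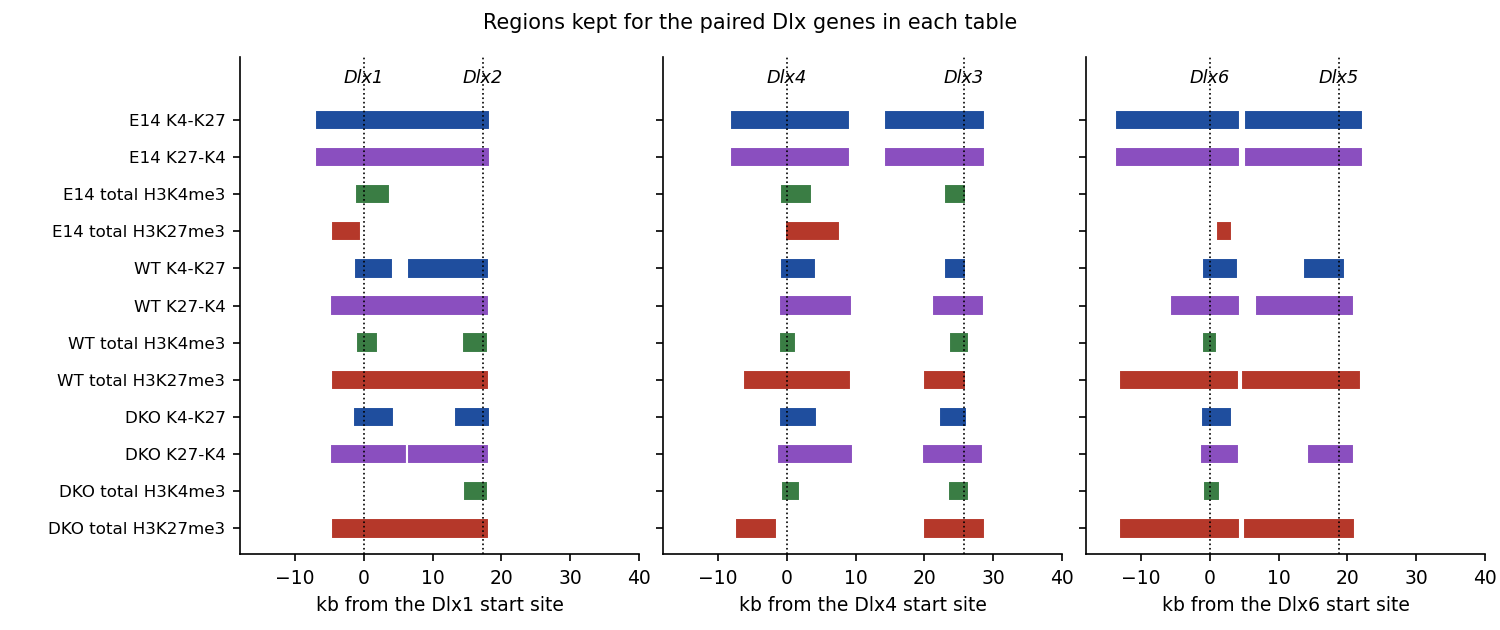
Extent of the region kept for each gene of the 3 Dlx pairs in each table, in kb from the start site of the gene on the left and towards its partner, with bars coloured by ChIP and start sites as dotted lines. Domains of E14 reChIPs and of H3K27me3 in WT are broad, total H3K4me3 regions are short and centred near the starts, and the Dlx1/Dlx2 locus alone is covered by 1 joint domain in E14.

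In E14 cells the members had a strong signal in both reChIPs and a weaker one in the in-line totals. Values are log2 RPM (RPM being reads scaled to the size of the library) per 1 kb of region. Tlx3 was highest by its mean. In K4-K27 it had 2.81 in replicate 1 and 2.97 in replicate 2, and its K27-K4 values were 2.51 and 4.17. For the Dlx1/Dlx2 region K4-K27 gave 2.51 and 2.90, while K27-K4 gave 2.60 and 3.98. At Tlx3 total H3K4me3 was 0.60 and 0.44 and total H3K27me3 0.69 and 0.69, so all 4 reChIP libraries stood above all 4 totals.

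The remaining members were close together. Dlx4 had 2.21 and 2.40 in K4-K27, Tlx1 2.25 and 2.27, Dlx5 2.19 and 2.00, Dlx6 2.11 and 1.99, and Tlx2 1.99 and 2.13. Dlx3 was the member whose K4-K27 replicates differed most, at 1.66 and 2.31. In K27-K4, replicate 2 was above replicate 1 at every member: Dlx6, the lowest, had 1.73 and 2.95, and Dlx3 had 1.90 and 3.33. By the mean in K4-K27 the order was Tlx3, Dlx1/Dlx2 and then the others, but Tlx3 and Dlx1/Dlx2 overlapped in their replicates. Dlx1/Dlx2 lay above Dlx4 and Tlx1 above Dlx5 in both replicates, and the remaining neighbours in the order (Dlx4, Tlx1, Dlx5, Tlx2, Dlx6 and Dlx3) overlapped. Reads behind these values numbered 461 to 6520 in K4-K27 and 371 to 19155 in K27-K4.

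**Figure D2:**
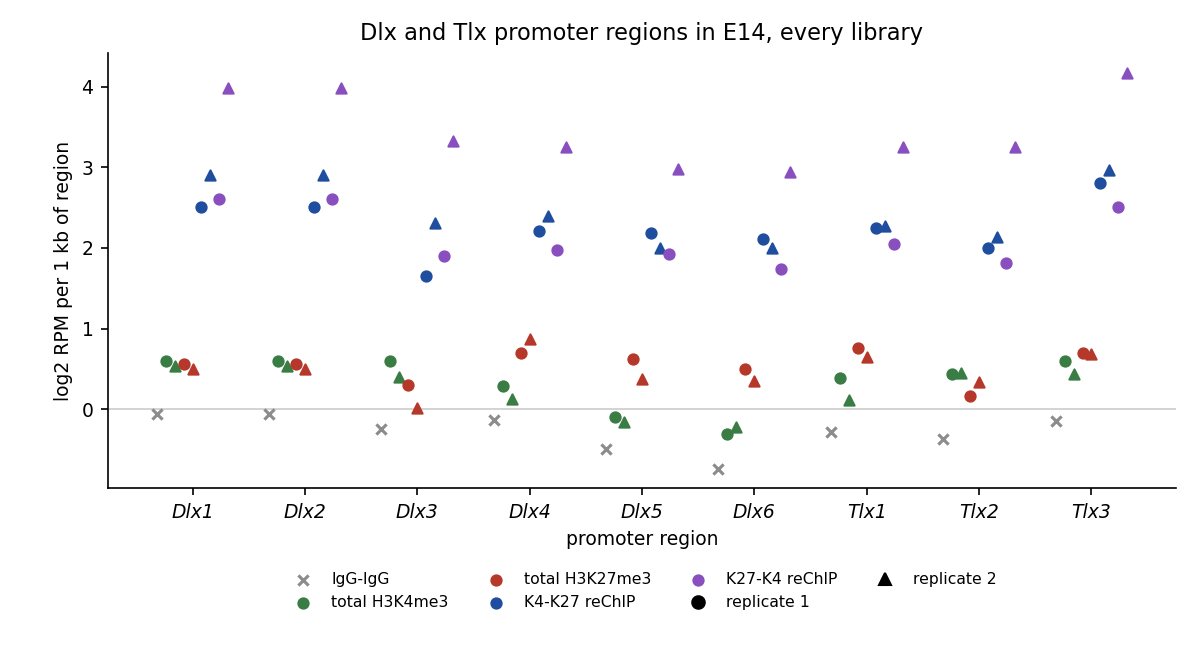
Value of each of the 9 E14 libraries at the E14 reChIP region of each member, in log2 RPM per 1 kb, with circles for replicate 1, triangles for replicate 2 and crosses for IgG–IgG. All reChIP points stand above all points of the totals at each gene, and K27-K4 replicate 2 is the highest point throughout, up to 4.17 at Tlx3.

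Over the IgG–IgG reChIP of E14, which had 96 to 214 reads at these regions, members were enriched by 1.91 to 3.11 log2 units in K4-K27 and by 2.10 to 4.32 in K27-K4. The mean K4-K27 enrichment of Tlx3 was above that of 94.6% of promoter regions in the table and that of Dlx3 above 75.9%. With 1 IgG–IgG library per experiment, its own spread is unknown.

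All 9 members were called higher in the reChIPs than in the in-line totals of E14. The paper describes the in-line totals as noisier and ascribes this to a likely lower amount of starting material. How much of the difference goes with that was not tested. These regions were listed for their reChIP signal, so a higher value in the reChIPs is partly built into the choice of regions, for the members as for the others. A call needed a log2 difference above 1 and an adjusted p under 0.05 in limma with Benjamini-Hochberg adjustment, and 29.3% of the 21857 regions shared by both orientations were called higher. Tlx3 rose by 2.51 ± 0.37 (SE, adjusted p = 0.0036, limma) from a mean of 0.60 ± 0.12 in the totals to 3.12 ± 0.73 in the reChIPs (SD, n = 4 libraries each). The 4 libraries are replicates 1 and 2 of both marks or of both orders, not 4 independent cultures. The SDs and the test thus mix replicates with marks or orders. Dlx1/Dlx2 rose by 2.45 ± 0.35 and Dlx6 by 2.12 ± 0.37. The smallest rise was at Tlx2, by 1.95 ± 0.36, and the median over members was 2.09 against 1.18 over all regions. The share of the shift that all regions have depends on the scaling: with each library centred on its median, 3 of 9 members were called (Dlx1, Dlx2 and Tlx3), while 5.03% of all regions were called, and the differences ran from 0.82 at Tlx2 to 1.38 at Tlx3.

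In E14 the members differed in which mark was stronger in the totals, and this turned with the region used. Over the E14 K4-K27 regions total H3K4me3 was above total H3K27me3 in both replicates at Dlx3 (0.60 and 0.40 against 0.30 and 0.01) and at Tlx2 (0.43 and 0.45 against 0.17 and 0.33). It was below in both at Dlx4, Dlx5, Dlx6, Tlx1 and Tlx3 over these regions. Dlx5 had -0.10 and -0.16 for H3K4me3 against 0.62 and 0.38 for H3K27me3, and Dlx6 -0.31 and -0.23 against 0.50 and 0.35. At Dlx1/Dlx2 the marks were alike, 0.59 and 0.54 against 0.56 and 0.50. These are values of 2 libraries per mark from different antibodies and were not tested. In the WT clones, at the WT K4-K27 regions, total H3K27me3 was above total H3K4me3 by the mean at all 9 members. The difference of H3K4me3 from H3K27me3 there was -1.28 at Tlx1 to -0.24 at Dlx1, with -0.62 at Dlx3 and -0.69 at Tlx2. Over the shorter regions called for total H3K4me3 itself, which were chosen on that mark, the balance lay nearer to H3K4me3. In E14 it was -0.11 at Dlx4 to 0.53 at Dlx3 over 5 members, and Tlx1 there had H3K4me3 above H3K27me3 in both replicates (0.72 and 0.93 against 0.64 and 0.63). In WT it was -0.53 at Tlx2 to 0.30 at Dlx2 over 6 members, with H3K4me3 above in both clones at Dlx1 and Dlx2.

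As a check of the cell type label, the ESC genes Pou5f1, Klf4 and Zfp42 had total H3K4me3 above total H3K27me3 by 2.76 to 3.57 at their E14 K4-K27 regions, while for Gata6, Sox17, Pax6, T and Cdx2, markers of other lineages, the difference was between -0.59 and -0.13. Esrrb was at -0.44, unlike the other ESC genes, and Nanog had no region in that table. The members, at -0.69 (Dlx6) to 0.34 (Dlx3), lay beside the markers of other lineages.

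Between the orders of the ChIPs no member was called. In E14, K27-K4 exceeded K4-K27 by 0.29 (Dlx6) to 0.63 (Dlx3) with SEs of 0.92 to 0.98. The median over all E14 regions was 0.70, above the difference at every member. By limma 0 of 9 members were called, 0 at an unadjusted p under 0.05, where 0.0% of all regions were called higher. With the replicate number as a block, 0 members were called too, at SEs of 0.58 to 0.90, while 6.97% of all regions were called higher. Without the block the 95% intervals together ran from -1.52 to 2.50, and with each library centred on its median the differences turned negative at all 9, to -0.39 at Dlx6. In the WT clones the difference was 0.20 at Dlx2 to 0.60 at Dlx5 (95% interval -0.59 to 1.79), again with 0 of 9 called, 0 at an unadjusted p under 0.05, and 0.0998% of regions called higher. Over all regions the median was -0.14, and more were called lower (1141) than higher (12). With the clone as a block the SEs were 0.18 to 0.25 and 0 of 9 were called, while 1.12% of regions were called higher. In that fit 4 members had an unadjusted p under 0.05 (Dlx3, Dlx5, Tlx1 and Tlx2, lowest adjusted p = 0.058 at Tlx1, limma). So did 979 of 12025 regions with a higher K27-K4 value. Dlx5, Tlx1 and Tlx2 had both K27-K4 libraries above both K4-K27 libraries in WT, an order found at 10.1% of all regions, Dlx5 with 3.40 and 2.82 against 2.57 and 2.45. With libraries centred on their medians the differences were 0.67 at Dlx2 to 1.07 at Dlx5, with adjusted p from 0.00061 to 0.015 at all 9 (limma). An adjusted p under 0.05 with a higher K27-K4 value was also found at 2717 of 12025 regions, and the median over all regions was 0.34. Dlx5 alone was then called (1.07 ± 0.25, adjusted p = 0.00066), since the other 8 did not exceed a log2 difference of 1, and 8.49% of all regions were called higher.

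In the WT clones the members again had reChIP values above the IgG–IgG reChIP. In K4-K27, at the regions listed in WT, Dlx1 was highest by its mean, with 4.01 in clone 57 and 3.34 in clone 58, but in clone 58 it lay below Tlx2 and Tlx3. Tlx3 had 3.72 and 3.35, Tlx2 3.48 and 3.59, and Dlx3 3.65 and 3.16. Dlx5 was lowest with 2.57 and 2.45. In K27-K4, Tlx3 had 3.97 and 3.25 and Tlx2 3.90 and 3.27, and the lowest was Dlx4 with 2.79 and 2.18. Clone 57 was above clone 58 at all 9 members in K27-K4 and at 8 in K4-K27, with Tlx2 as the exception. Gapdh, an active gene used as a control, had 3.06 and 2.75 in K4-K27 at its WT region, within the range of the members, but -0.18 and 0.09 in K27-K4 and -1.88 and -1.64 in total H3K27me3. Its IgG–IgG value was 0.88. In E14 the same order of ChIPs gave -1.42 and 0.33 at Gapdh.

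Against the IgG–IgG reChIP of clone 57 the order changed. IgG–IgG was below 0 at Dlx3, with -0.06 over the K4-K27 region and -0.66 over the K27-K4 region, and at Tlx2, with -0.14 and -0.37, while Tlx3 had 0.96 and 0.90. Enrichment was then highest at Tlx2, where K4-K27 had 3.62 and 3.73 and K27-K4 had 4.27 and 3.64. It was second at Dlx3, where K4-K27 had 3.71 and 3.22 and K27-K4 had 3.94 and 3.17. Dlx5 was lowest in K4-K27 with 1.66 and 1.53, which put its mean above 6.24% of promoter regions.

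In the DKO clones reChIP values at the members were mostly lower than in WT, but no difference passed the test against the spread between clones. In K4-K27, Dlx3 had 2.84 in clone 43 and 2.40 in clone 53 against 3.65 and 3.16 in WT. Both DKO clones were below both WT clones there. The difference, -0.79 ± 0.62 (SE, 95% interval -1.99 to 0.42, adjusted p = 0.61, limma), was the largest of the 9. After centring of libraries on their medians, Dlx3 differed by -0.74 ± 0.29 (unadjusted p = 0.021, adjusted p = 0.19, limma), and SEs over the members were then 0.29 to 0.32. An unadjusted p under 0.05 with a lower value in DKO was then found at 6003 of 53855 regions.

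The Tlx genes had differences close to each other. Tlx2 had 3.22 and 2.59 in DKO against 3.48 and 3.59, a difference of -0.63 ± 0.63. Tlx1 had 2.60 and 2.09 against 2.98 and 2.90, a difference of -0.59 ± 0.60. At both, the clones did not overlap. Tlx3 had 3.40 and 2.67 against 3.72 and 3.35, a difference of -0.50 ± 0.63 (95% interval -1.74 to 0.74), and clone 43 lay within the WT range.

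Among the other Dlx genes only Dlx6 had separate clones, with 2.60 and 2.12 in DKO against 3.06 and 2.66 and a difference of -0.50 ± 0.60. Dlx1 had 3.87 and 3.11 against 4.01 and 3.34, and Dlx2 3.36 and 2.65 against 3.31 and 3.04. Their differences were -0.18 ± 0.66 and -0.17 ± 0.62. Dlx5 differed by -0.25 ± 0.59. Dlx4 was the one member with a higher DKO mean, 3.29 and 2.52 against 2.95 and 2.68, by 0.09 ± 0.61 (95% interval -1.10 to 1.28).

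None of the 9 members was called lower in K4-K27, 0 at an unadjusted p under 0.05, where 1.19% of 53855 regions were called lower by limma. In 4 of 9 both DKO clones were below both WT clones, against 19.2% of all regions. The median difference was -0.50 over the members and -0.01 over all regions. The members were read at regions listed in WT, however, while all regions hold those of both sets. Over the 26544 regions listed in WT the median was -0.34, both DKO clones were lower at 32.9%, and 2.14% were called lower. Leaving out 1 clone moved the medians over members and over the regions of both sets, which were -0.14 and 0.28 without DKO clone 53, -0.74 and -0.28 without DKO clone 43, -0.30 and 0.27 without WT clone 57 and -0.58 and -0.34 without WT clone 58. The markers of other lineages (Gata6, Sox17, Pax6, T and Cdx2) had a median of -0.51, with 5 of 5 below 0. The 5 ESC genes had a median of 0.55, with 3 above 0. In these libraries of whole cultures, fewer cells with the marks and less signal in each cell cannot be told apart.

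In K27-K4 all 9 differences were below 0. Tlx2 had 2.94 and 2.77 in DKO clones 43 and 53 against 3.90 and 3.27 in WT, -0.73 ± 0.56 (SE, 95% interval -1.84 to 0.39, adjusted p = 0.47, limma). Tlx3 had 3.23 and 2.95 against 3.97 and 3.25, -0.52 ± 0.58, and Tlx1 2.30 and 2.17 against 3.01 and 2.42, -0.48 ± 0.48. At each of the 3 Tlx genes both DKO clones were below both WT clones.

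Of the Dlx genes, at the WT regions, this held at Dlx6 alone, with 2.45 and 2.16 in DKO against 3.13 and 2.51, -0.51 ± 0.49. At the regions listed in DKO it held at Dlx3 and Dlx5 too. At its WT region Dlx3 had 2.55 and 2.22 against 3.27 and 2.50, -0.50 ± 0.50. The shared Dlx1/Dlx2 region had 3.15 and 2.86 against 3.72 and 2.95, -0.33 ± 0.56. Dlx5 had 2.42 and 2.12 against 2.96 and 2.40, -0.41 ± 0.48. The smallest difference was at Dlx4, 2.43 and 2.25 against 2.79 and 2.18, -0.15 ± 0.48. No member was called lower in K27-K4 by limma, 0 at an unadjusted p under 0.05, with 2.24% of 59260 regions called lower, and 4 of 9 had separate clones against 30.8% of all regions. The median was -0.48 over members and -0.15 over the regions of both sets. Over the 31231 regions listed in WT, the like of those at which the members were read, it was -0.65, with both DKO clones lower at 50.6% and 4.52% called lower, so the median of the members lay above that of their own table. Without WT clone 58, Tlx2 was called lower (-1.04 ± 0.38, adjusted p = 0.043, limma), as were 9.29% of all regions. The median over members was then -0.77 and that over the regions of both sets -0.31, and without WT clone 57 they were -0.13 and 0.01. For the markers of other lineages named above the K27-K4 median was -0.43, and again 5 of 5 were below 0. Of the ESC genes 2 had a K27-K4 region, Klf4 with a difference of -1.61 (adjusted p = 0.051, limma) and Esrrb with -0.24.

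**Figure D3:**
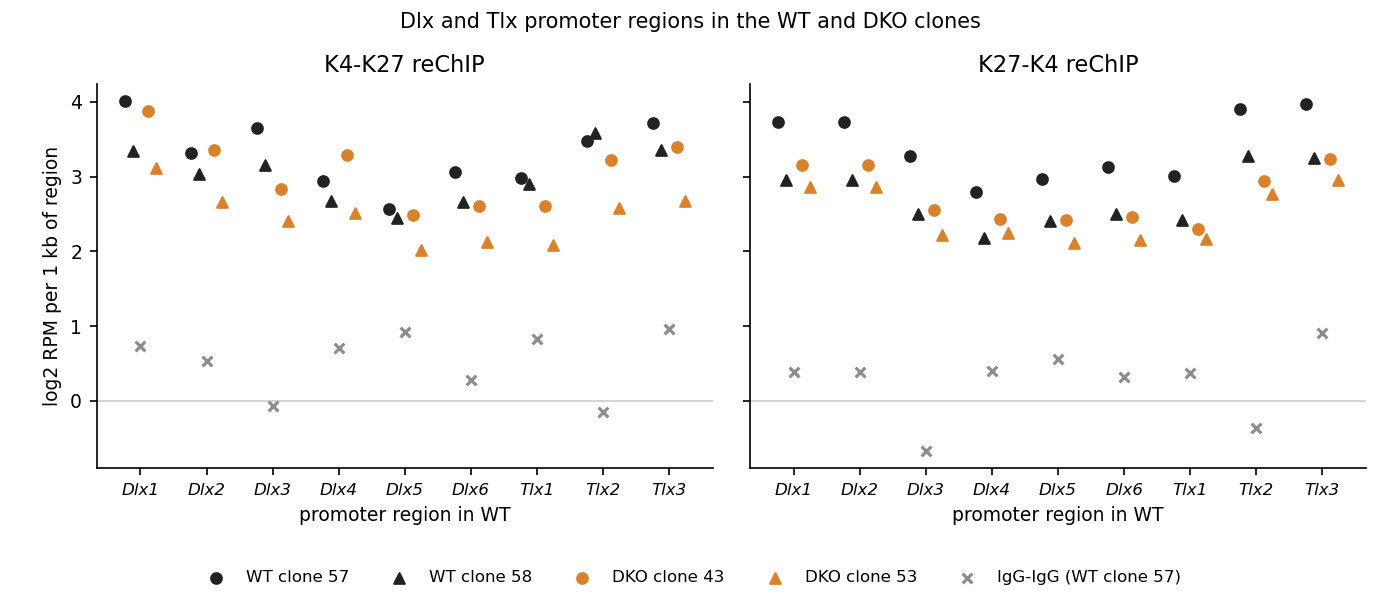
Value of each clone at the WT region of each member in K4-K27 (left) and K27-K4 (right), in log2 RPM per 1 kb, with black for WT, orange for DKO and crosses for IgG–IgG. DKO points lie below WT points at Dlx6, Tlx1 and Tlx2 in both panels, overlap at Dlx1 and Dlx4 in both, and all lie above IgG–IgG.

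Whether the genotype difference depended on the order of the ChIPs was tested as an interaction. At the members it ran from -0.30 at Dlx5 to 0.24 at Dlx3, with SEs of 0.70 to 0.81 and 95% intervals between -1.77 and 1.74. It was called at 0 of 9 by limma, 0 at an unadjusted p under 0.05, and 0.0% of 25603 regions were called. With the clone as a block, 0 members and 0.0117% of regions were called lower.

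In the in-line totals clone 57 stood above clone 58 at every member, and the DKO clones lay between them. Total H3K4me3 at Dlx1 was 2.44 and 2.39 in DKO against 2.92 in clone 57 and 1.72 in clone 58. At Dlx4 it was 2.23 and 1.84 against 2.47 and 1.34. Dlx5 and Tlx1 had no listed region, and over the other 7 members the differences ran from -0.22 at Tlx2 to 0.13 at Dlx4 (SE 0.72 to 0.83). None was called, 0 at an unadjusted p under 0.05, where limma called 2.47% of 64063 regions lower.

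Total H3K27me3 was likewise higher in clone 57 than in clone 58, at Tlx1 2.20 and 1.48, and the DKO clones had 1.68 and 1.54. At the Dlx1/Dlx2 domain WT had 2.18 and 1.37 and DKO 1.97 and 1.71. The differences ran from -0.23 at Tlx1 to 0.06 at Dlx1/Dlx2 (SE 0.41 to 0.42, 95% intervals from -1.05 to 0.89). None of 9 was called by limma, 0 at an unadjusted p under 0.05, where 1.78% of 53286 regions were called lower.

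**Figure D4:**
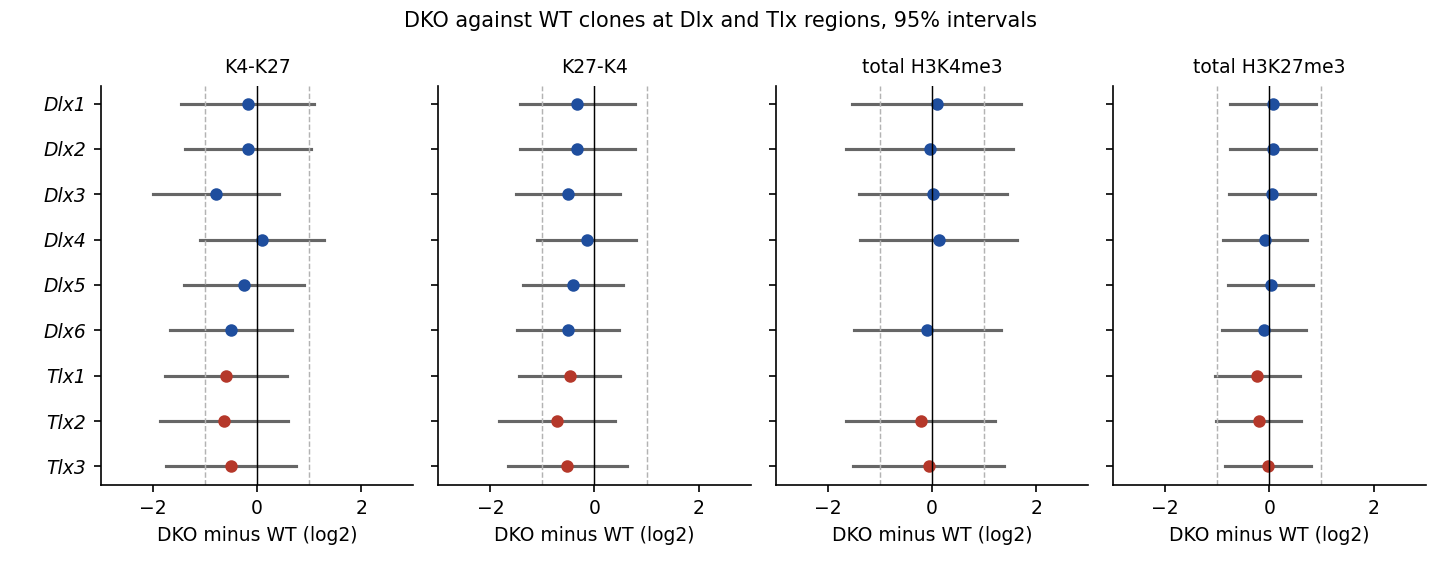
Difference of DKO from WT clones (log2) at each member in the 4 ChIPs, with 95% intervals from limma as bars, Dlx genes in blue and Tlx genes in red, and dashed lines at the call threshold of 1 either way. All intervals include 0, and the reChIP differences are mostly left of 0, to -0.79 at Dlx3, while those of the totals lie within 0.23 of it.

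Of the pairs, Dlx3 and Dlx4 had the widest gap between genotypes in K4-K27. At their WT K4-K27 regions, Dlx3 minus Dlx4 in K4-K27 was 0.59 ± 0.16 in WT and -0.28 ± 0.24 in DKO (SD, n = 2 clones). In WT clone 57 and clone 58 Dlx3 was above Dlx4, and in both DKO clones it was below. The sign in DKO rests on the scale: IgG–IgG itself was lower at Dlx3 than at Dlx4 by a log2 difference of -0.77, and with it subtracted Dlx3 was above Dlx4 by 1.36 in WT and by 0.49 in DKO. In K27-K4 the difference, without subtraction, was 0.61 ± 0.02 and 0.22 ± 0.06. An exact two-sided permutation test of each gave p = 0.333, the smallest that 2 clones against 2 allow, so this test cannot reach 0.05. Of 20 such comparisons over pairs, ChIPs and regions none had a lower p, and the lowest adjusted p was 0.51. The totals showed no such gap, with 0.18 ± 0.18 and 0.14 ± 0.02 for H3K4me3. Over the wider E14 regions the K4-K27 difference was 0.05 and -0.17 in WT, -0.79 and -0.17 in DKO, and -0.55 and -0.08 in E14, so that the lower WT clone and the higher DKO clone had like values there.

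Dlx1 stood above Dlx2 by 0.50 ± 0.27 in WT and 0.49 ± 0.04 in DKO in K4-K27 at the WT regions, in all 4 clones. The WT regions are 5700 and 11850 bp wide, and at the DKO K4-K27 regions, 6000 and 5250 bp, the order turned in both genotypes, with means of 3.61 against 3.75 in WT and 3.42 against 3.53 in DKO. At the WT regions Dlx5 minus Dlx6 was -0.35 ± 0.19 in WT and -0.11 ± 0.01 in DKO (SD, n = 2 clones). The exact permutation p of these genotype differences was 1 for Dlx1/Dlx2 and 0.333 for Dlx5/Dlx6.

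**Figure D5:**
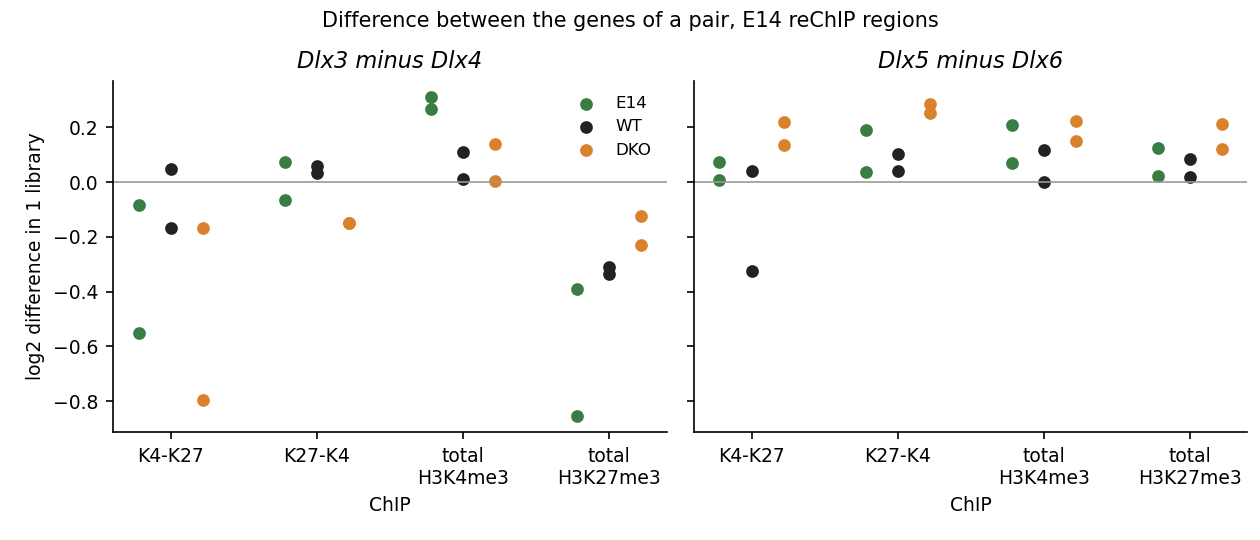
Difference between the genes of a pair in each library (log2) at their E14 reChIP regions, for Dlx3 minus Dlx4 (left) and Dlx5 minus Dlx6 (right), by ChIP and by E14, WT and DKO. Dlx3 and Dlx4 differ by up to 0.79 in K4-K27 of DKO and by more than that in total H3K27me3 of E14 replicate 2. Dlx5 and Dlx6 stay within 0.33 in every library.

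Between the WT clones and non-clonal E14 cells, no member was called in a reChIP at the E14 regions. K4-K27 differences ran from -0.63 at Dlx4 (95% interval -1.89 to 0.62) to 0.23 at Dlx1/Dlx2, and K27-K4 differences from -0.49 at Dlx4 to 0.07 at Dlx6, with SEs up to 1.11. The medians over all regions were 0.13 and -0.82. With libraries centred on their medians, all 9 differences were negative for K4-K27, to -1.04 at Dlx4, while for K27-K4 all 9 were positive, from 0.30 at Dlx4 to 0.86 at Dlx6. In K4-K27 both clones were below both E14 replicates at Dlx4, Dlx5 and Tlx1 (26.7% of all regions), and above them at Tlx2 (34.0%). The counts were 0 of 9 in each order, 0 at an unadjusted p under 0.05, and limma called 0.0% of regions higher in either orientation. Total H3K4me3 was higher in the clones by 0.18 at Dlx3 to 0.79 at Tlx1 at the 5 members listed, with 0 called by limma, 0 at an unadjusted p under 0.05, and 0.0% of regions called higher. The median over all regions was 0.82, and centring each library on its median turned all 5 differences negative, from -0.63 at Dlx3 (adjusted p = 0.049, limma) to -0.02 at Tlx1. Without WT clone 58, 4 of 5 were called (Dlx1, Dlx4, Tlx1 and Tlx2), by 1.07 to 1.29, but so were 62.9% of all regions, and the median over all regions was then 1.41.

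Total H3K27me3 was higher in both WT clones than in both E14 replicates at all 6 members listed, where 15.5% of regions had that order. Tlx1 had 2.203 and 1.504 in the clones against 0.924 and 0.677, a difference of 1.05 ± 0.45 (SE, 95% interval 0.18 to 1.93, adjusted p = 0.14, limma). Tlx3 differed by 0.98 ± 0.44 and Dlx6 by 0.99 ± 0.45. None was called, and 0.446% of regions were called higher. An unadjusted p under 0.05 (limma) was found at 3 members (Dlx6, Tlx1 and Tlx3), and with a higher value in the clones at 1061 of 21527 regions. Without WT clone 58 all 6 were called, with differences of 1.15 at Dlx4 to 1.40 at Tlx1, against 7.35% of all regions. Over all regions the median difference was -0.30, so the members lay above it.

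Reads of these libraries carry no strand, so the antisense genes at the paired loci have the values of the regions they lie in. Dlx1as shared the Dlx2 region in WT K4-K27 and so its values. Dlx6os1 had a region of its own there, chr6:6859051-6861900, with 2.28 and 1.68 in WT and 2.35 and 1.67 in DKO, a difference of 0.03 ± 0.59, and its IgG–IgG value of 1.00 was above that of every member. In E14 reChIPs and WT K27-K4 it fell in the Dlx5 region.

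Genes that act with the Dlx factors were taken as a list of 19, among them Gsx1, Gsx2, Lhx6, Lhx8, Sp8, Sp9, Nkx2-1, Gad1 and Gad2 of the ventral forebrain, and Msx1, Msx2, Hand2, Edn1, Ednra, Runx2, Sp7 and Trp63 of the jaw, bone and skin. Of these, 18 had a region for each reChIP in the clones, 15 for total H3K4me3 and 17 for total H3K27me3. In K4-K27 and in either total 0 were called, where 1.19%, 2.47% and 1.78% of all regions were called lower in K4-K27, total H3K4me3 and total H3K27me3. The median difference in K4-K27 was -0.54 and in K27-K4 -0.47, against -0.34 and -0.65 over the regions listed in WT. At the WT regions 0 of 18 were called in K27-K4 too, where 2.24% of all regions were called lower. Ednra, the endothelin receptor that acts upstream of Dlx5 and Dlx6 in the jaw, was called lower at its DKO K27-K4 region, by 1.53 log2 units (adjusted p = 0.040, limma), but not at its WT region, where it differed by -1.29 ± 0.41 (SE, adjusted p = 0.084). In K4-K27 the list ran from -1.78 at Ednra to 0.80 at Edn1, the ligand of that receptor, wider than the members. Both DKO clones were below both WT clones at 11 of 18 and above them at 1. They were below at 19.2% of all regions and 32.9% of those listed in WT. In K27-K4 both DKO clones were below both WT clones at 9 of 18, against 30.8% of all regions and 50.6% of those listed in WT. Named by the rule of the 3 smallest, the K4-K27 differences nearest to 0 were those of Gsx1, a homeobox gene of the forebrain (0.03), Msx2, a homeobox gene of bone and limb (-0.14), and Sp7, a factor of bone-forming cells (-0.36).

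A list of 12 genes was used for Tlx, among them Lbx1, Ptf1a, Pax2, Ret, Drgx, Lmx1b, Isl1, Wt1, Nkx3-2 and Slc17a6. For each reChIP 11 had a region, for total H3K4me3 8 and for total H3K27me3 10, and none was called in the 4 DKO against WT comparisons. Over all regions 1.19% were called lower in K4-K27, 2.24% in K27-K4, 2.47% in total H3K4me3 and 1.78% in total H3K27me3. Medians of the list were -0.49 in K4-K27 and -0.47 in K27-K4, against -0.34 and -0.65 over the regions listed in WT. Among the smallest K4-K27 differences was that of Slc17a6, a glutamate transporter of excitatory neurons (-0.21). The medians over the 9 members were -0.50 and -0.48. In E14, 18 of 18 Dlx-linked and 10 of 11 Tlx-linked genes were called higher in reChIPs than in totals, where the share over all regions was 29.3%. These regions too were listed for their reChIP signal, and centring lowered the share over all regions to 5.03%.

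The promoter regions nearest to the members were found by the root mean square log2 difference over the 16 clone libraries, among 14316 promoter regions of WT K4-K27 that hold no member. Nearest to the mean of the Dlx genes were Onecut2 (0.085), the region of Gad1 and Gad1os (0.10) and Isl2 (0.10), against a median of 2.16 over all regions. Nearest to the mean of the Tlx genes was Pax2 (0.082), and the region of Cyp26a1 and Gm32342 (0.11) was also among the 3 nearest, against a median of 2.31. These libraries share clones and scaling, so the values describe likeness in level only. Gad1 and Pax2 also stand in the lists above.

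Libraries held 6741245 to 47903464 reads, the lowest being K27-K4 replicate 1 of E14 and the highest its replicate 2.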

How the data were processed

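ChIP-reChIP libraries of E14 cells (9) and of WT and DKO clones (17) were used. The authors trimmed reads with Trim Galore (0.6.6), aligned them with BWA (0.7.13) to mm10, called regions per set and quantified them in SeqMonk. The deposited values are log2 RPM per 1 kb of region, from alignments with mapping quality over 20, duplicates kept, without IgG–IgG subtraction. From each table's values whole reads were recovered (100% of values whole within 0.02 reads, 0 reads being entered as 0.9), which gave library sizes. The tables hold 32 columns of no sample of this series, not used. Regions were compared with limma (3.58.1, R 4.3.3; eBayes, trended prior variance, robust) on log2 values, adjusted by Benjamini-Hochberg over all regions tested. DKO against WT fits held the regions of both sets, identical coordinates once, and values are from the WT region where one is listed. Overlapping regions share reads. Fits were tested on simulated data. E14 libraries with 1 replicate number share a sequencing batch and reChIPs of 1 clone share its cells, so they were taken as pairs; their deviations correlated between -0.087 and 0.58 in E14 and at 0.099 and 0.098 in WT and DKO clones, and fits with the pairing are alternatives. Members, lists and tests were chosen with earlier results of these data known. Named genes were the members, Dlx1as and Dlx6os1, list genes called in a DKO against WT test or with the 3 smallest K4-K27 differences, the 3 nearest promoters to each family, and control and marker promoters. Some genes that this rule or the lists hold are not reported here. A promoter was 1.5 kb upstream and downstream of a RefSeq start. Alternatives were median centring, no trend or robust estimation, no lowest quartile (25%), adjusted p alone, each library left out, promoters of 500 bp and 5 kb, WT regions only, and the other IgG–IgG library.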

Additional observations from a re-analysis of the deposited data

How the results depend on the processing

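In the 4 DKO against WT comparisons 0 members were called under all alternatives that kept 2 clones per genotype. Leaving out a clone leaves 1 library in its group, so the spread comes from the other genotype alone, and only differences are given. Without WT clone 58, Tlx2 differed by -1.04 in K27-K4. The signs of member differences, none of them called, changed in 5 of 99 combinations of member and alternative for K4-K27, 4 of 99 for K27-K4, 12 of 76 for total H3K4me3 and 16 of 99 for total H3K27me3. Centring each library on its median left 3 members called in reChIPs against totals (9 otherwise) and called 1 in K27-K4 against K4-K27 of WT clones. Against E14, leaving out 1 library gave 0 to 4 members called for total H3K4me3 and 0 to 6 for total H3K27me3, the highest without WT clone 58. With the replicate block (pairing), 9 members were called in reChIPs against totals, 0 in both orientation comparisons and 0 in the interaction, so it changed no call at a member. Over all regions it raised the number called higher between the orientations from 0 to 1523 in E14 and from 12 to 135 in WT clones, where the number called lower went from 1141 to 2099. With the IgG–IgG value subtracted, and each set at the regions of its own table, Dlx1 minus Dlx2 was 0.14 in DKO K27-K4 and -0.54 in DKO K4-K27 (-0.18 and -0.11 without subtraction). Dlx3 minus Dlx4 was 0.90 and 0.25 there, 1.46 and 1.36 in WT, and in E14 0.12 in K27-K4 but -0.20 in K4-K27, so that the sign in DKO K4-K27 (-0.44 without subtraction) reversed and that in E14 K4-K27 did not. Dlx5 minus Dlx6 was -0.57 in DKO K27-K4, -0.13 in E14 K27-K4, -0.20 in E14 K4-K27, -0.39 in WT K27-K4 and -0.99 in WT K4-K27. The median E14 K4-K27 enrichment of the 9 members was 2.59 over the IgG–IgG library of E14 and 2.13 over that of the clones. Counts of regions called lower over the whole table moved widely: 189 to 4239 in K4-K27 (640 as reported), 482 to 5504 in K27-K4 (1325), 74 to 4714 in total H3K4me3 (1582) and 0 to 671 in total H3K27me3 (948). The cause of these changes was not tested. With 2 clones per genotype, SEs at the members were 0.48 to 0.66 in the reChIPs, and 0.29 to 0.48 with libraries centred.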
